A study of Mus musculus with 16 samples.

Results

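Cholesterol synthesis and uptake were followed through 27 genes in the ileum of 16 mice. The genes are those whose Ensembl identifiers map to a list of 27 mouse symbols: 18 enzymes of the pathway from acetyl-CoA to sterols (1 of them, Ggps1, on its geranylgeranyl branch), 4 proteins that sense sterols, and 5 genes of uptake, transfer, esterification and the liver X receptor (LXR). The table of read counts holds 21965 genes, and all 27 are among them. All 27 also passed the filter on low counts that left 13811 genes for testing.

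The mice were C57BL/6 males, aged 8 to 10 weeks at the start. Wild-type (WT) mice were compared with fat-1 littermates, which the labels write as Fat1+/-. These carry, as heterozygotes, the n3 fatty acid desaturase fat-1 of C. elegans, expressed in all tissues, which turns n6 into n3 polyunsaturated fatty acids. The transgene's own reads were not analysed here. Ethanol-fed (EtOH) mice took a Lieber-DeCarli liquid diet without ethanol for 2 days, at 1% (v/v) for 2 days, at 2% for 2 days, at 4% for 1 week, at 5% for 1 week and at 6% for 3 weeks. Pair-fed (PF) controls received the same calories, with maltose dextrin in place of ethanol. There were 4 WT PF and 3 WT EtOH mice, beside 4 fat-1 PF and 5 fat-1 EtOH mice. Each gave 1 library of the terminal ileum. Libraries 1 to 8 were of PF mice and 9 to 16 of EtOH-fed mice, so that library order and diet cannot be told apart.

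Cells make cholesterol from acetyl-CoA through mevalonate, squalene and lanosterol. When sterols in the endoplasmic reticulum fall, SCAP carries SREBP2 to the Golgi, where it is cleaved, and its released domain raises transcription of the synthesis enzymes. INSIG proteins hold the complex back when sterols are plentiful. Enterocytes, the absorptive cells of the small intestine, also import cholesterol from the lumen through NPC1L1 and esterify it with SOAT2 for export in chylomicrons. LXR alpha, encoded by Nr1h3, responds to oxysterols and raises genes of sterol efflux.

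Because SREBP2 acts at promoters beside the factors NF-Y and Sp1, the letters of their binding elements were searched on both strands of RefSeq promoter windows (GRCm38.p6, 250 bases before to 50 after the start of transcription). Of the 27 genes, 22 had a window. Soat2, Fdps, Sqle, Fdft1 and Stard4 had none. A strict sterol regulatory element, TCACNCCAC with N for any base, lay in 1 of the 22 windows (4.55%), that of Hmgcs1, and in 1.44% of all 27025 windows. The NF-Y box CCAAT lay in 19 (86.4%) against 41.1% of all windows, and the Sp1 box GGGCGG in 18 (81.8%) against 38.2%. No window of the 22 held the direct-repeat element bound by LXR, which 0.0148% of all windows did. These are matches of letters and show no binding, and a window without a match lacks only those letters.

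The 250 bases before the start are printed, 5′ to 3′ on the strand of the gene, for Hmgcs1, which holds all 3 kinds of SREBP2-related element, for Hsd17b7, with 3 matches each to the NF-Y and the Sp1 box, and for Sc5d, an enzyme gene that was lower in EtOH-fed mice. Capitals mark the matches, which do not overlap: TCACCCCAC is the sterol regulatory element of Hmgcs1, 137 bases before its start, ATTGG is the NF-Y box read on the other strand, and GGGCGG or CCGCCC is the Sp1 box. In GRCm38 the stretches are chr13:119690101-119690350 (+), chr1:169969206-169969455 (-) and chr9:42264301-42264550 (-).
Hmgcs1: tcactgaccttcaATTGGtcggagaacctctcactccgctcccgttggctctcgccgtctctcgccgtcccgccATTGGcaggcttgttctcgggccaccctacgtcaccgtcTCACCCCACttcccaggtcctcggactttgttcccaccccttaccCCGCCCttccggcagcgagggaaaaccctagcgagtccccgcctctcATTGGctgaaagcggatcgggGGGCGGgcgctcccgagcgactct
Hsd17b7: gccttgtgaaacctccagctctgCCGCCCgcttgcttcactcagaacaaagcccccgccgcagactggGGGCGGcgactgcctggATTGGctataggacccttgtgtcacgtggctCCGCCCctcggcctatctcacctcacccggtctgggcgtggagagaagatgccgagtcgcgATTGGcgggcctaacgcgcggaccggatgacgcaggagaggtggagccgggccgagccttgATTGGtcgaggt
Sc5d: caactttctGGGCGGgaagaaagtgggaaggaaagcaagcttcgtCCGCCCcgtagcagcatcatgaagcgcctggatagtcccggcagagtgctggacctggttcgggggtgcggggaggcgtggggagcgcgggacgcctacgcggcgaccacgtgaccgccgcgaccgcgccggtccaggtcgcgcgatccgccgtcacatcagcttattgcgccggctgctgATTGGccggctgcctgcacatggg

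Counted reads ran from 8422645 to 11438539 per library, and 3 counts stand for 0.246 to 0.421 CPM, where CPM are counts per 1000000 reads of a library whose total was scaled by TMM. The ileum was checked with 6 genes of ileal bile acid handling, among them Slc10a2 and Fabp6, which import and carry bile acids. Their summed level was 2496 to 7026 CPM in WT PF mice and 6696 to 7090 in WT EtOH mice. It was only 491.5 and 439.4 CPM in fat-1 PF mice 2 and 4 and 1083 and 2058 CPM in fat-1 EtOH mice 3 and 4. The former pair had the highest sums of 10 proximal small intestine genes (61510 and 58110 CPM) and the latter the lowest (116.5 and 121.8 CPM). Large intestine genes summed to 13080 and 14120 CPM in fat-1 EtOH mice 3 and 4 and to 5050 CPM in WT EtOH mouse 2, against 27.5 to 206.2 CPM in the other 13 mice. The calls are therefore given with and without these mice. The 4 fat-1 mice were named for their region markers and enzyme levels together, so that fits without them are no independent checks. In bulk tissue, fewer cells of a type and less RNA per cell cannot be told apart.

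**Figure D1:**
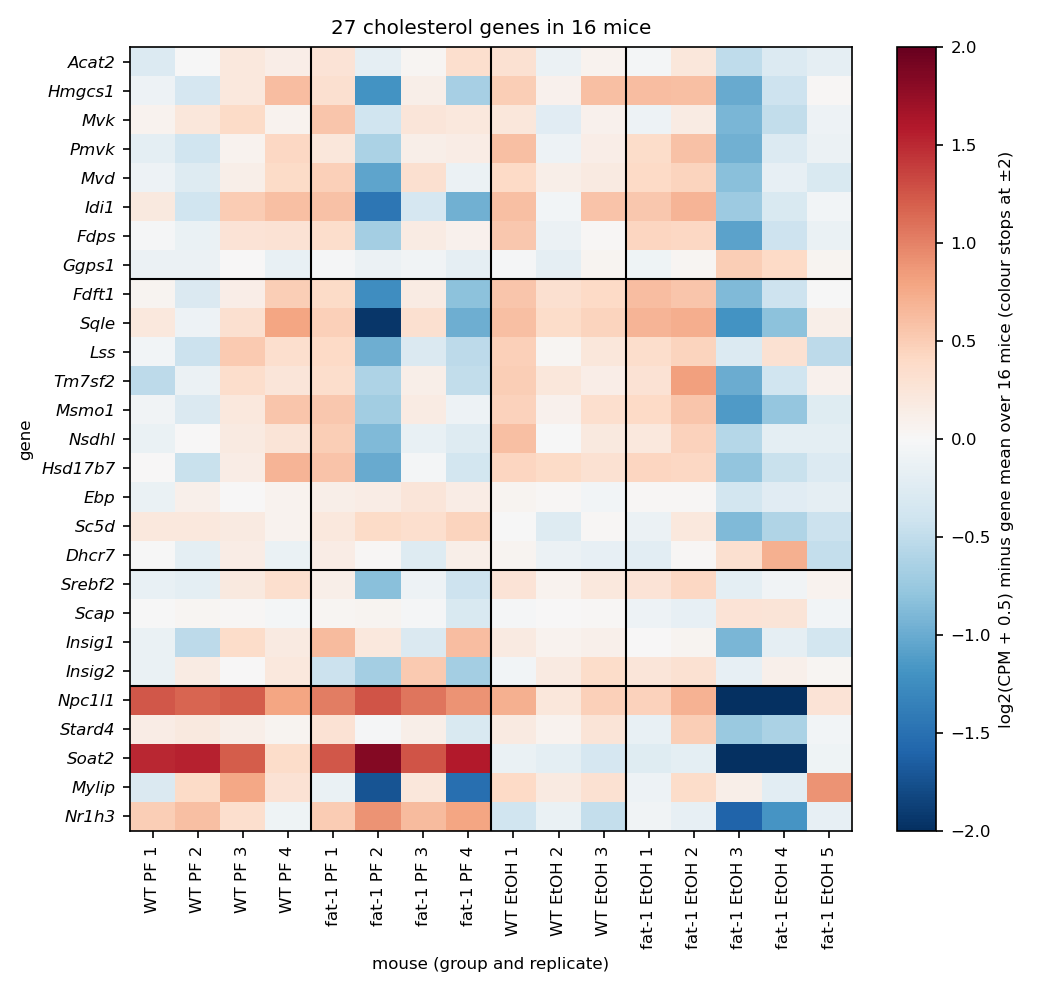
Level of each of the 27 genes (rows, by role: mevalonate enzymes, squalene and sterol enzymes, sterol sensing, uptake and LXR) in each mouse (columns, by group), as log2(CPM + 0.5) minus the gene's mean over the 16 mice. Soat2 and Npc1l1 are far below their means in fat-1 EtOH mice 3 and 4, and most synthesis enzymes are low in these mice and in fat-1 PF mice 2 and 4.

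Per length of exon, absorption genes led in WT PF mice. Npc1l1, the importer of luminal cholesterol, had the highest level of the 27 (238 CPM per kb), followed by Soat2 (109), Hmgcs1 (102.9) and the sterol carrier Stard4 (76.2). Idi1 was lowest at 4.01 CPM per kb, below Lss (6.05) and Ggps1 (6.21). Some reads of Acat2 (33.9% of its 75-base stretches, shared with Acat3), Fdps (23.5%), Idi1 (16.7%), Fdft1 (5.21%) and Ggps1 (2.7%), shared with other annotated gene models, could belong to other genes, and 8.83% of Tm7sf2 is shared with Vps51, which overlaps it. Exons of Hmgcs1, Idi1, Ggps1, Fdft1, Lss and Scap overlap a gene on the opposite strand, which for Ggps1 is Arid4b and for Fdft1 is Ctsb. Whether the counting used the read strand is not stated, so that the reads of these 6 genes are uncertain to that extent. On the same strand, exons of Nr1h3 overlap Gm13783, though none of its 75-base stretches is shared, and exons of Fdps overlap Gm43738.

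To find which genes changed with ethanol, EtOH-fed mice were compared with PF mice within each genotype by edgeR's quasi-likelihood test, calling a gene changed at a Benjamini-Hochberg adjusted p of 0.05 or less over all genes tested. In fat-1 mice, 5 of the 27 were called: Soat2, Nr1h3, Sc5d and Ebp were lower and Ggps1 was higher. Among all genes, 37.4% were called in this comparison, 18.8% lower and 18.7% higher, so that 5 of 27 is below the background. In WT mice 0 of the 27 were called, where 0.0796% of all genes were (11 genes, and 0 to 66 when single mice were left out). At an unadjusted p below 0.05 edgeR had 1 in WT mice, Nr1h3, where 14.1% of all genes were. DESeq2 called 0 of the 27, against 1.97% of all genes with an adjusted p, and limma voom 2, Nr1h3 and Soat2, against 20.7%, so that these counts too lie below the background. With only the WT groups fitted, edgeR called Npc1l1, Nr1h3 and Soat2 lower in WT mice, where 569 of 13250 genes were called lower. With all mice fitted, the median log2 fold change of the 27 was 0.10 in WT and 0.04 in fat-1 mice, beside 0.01 and 0.05 over all genes.

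Soat2, whose enzyme esterifies cholesterol for chylomicrons (chr15:102150526-102163469, GRCm38), showed the largest fold change of the 27. It read 294, 299.1, 239.5 and 132.4 CPM in WT PF mice 1 to 4, and 93.4, 90.3 and 81.8 CPM in WT EtOH mice 1 to 3. In fat-1 mice it read 245.4, 370.7, 246.4 and 310.9 CPM under PF and 87.1, 90.2, 2.95, 4.10 and 97.3 CPM under EtOH. Every EtOH-fed mouse of either genotype was below every PF mouse, as were 4.66% of all genes. Apart from fat-1 EtOH mice 3 and 4, the 6 EtOH-fed mice lay within 81.8 to 97.3 CPM.

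Soat2 fell by 2.38 ± 0.75 (SE, edgeR) on the log2 scale in fat-1 mice (adjusted p = 0.0235; exact permutation test, two-sided, p = 0.0159), the smallest p that 5 against 4 mice allow. In WT mice the difference was -1.45 ± 0.87 (adjusted p = 0.463). Its exact permutation p was 0.0571, the smallest that 3 against 4 mice can give. Both permutation p follow from the groups not overlapping, as held in this direction for 13.4% (fat-1) and 12.1% (WT) of all genes. Averaged over genotypes Soat2 fell by 1.91 ± 0.58 (adjusted p = 0.0208). Without fat-1 EtOH mice 3 and 4 it was called in both genotypes: the log2 fold change was -1.44 ± 0.23 (adjusted p = 0.0125) in WT and -1.65 ± 0.23 (adjusted p = 0.00154) in fat-1 mice. The WT call was lost when WT EtOH mouse 2 was left out as well (-1.46 ± 0.28, adjusted p = 0.055). Without fat-1 PF mice 2 and 4 the call in fat-1 mice was lost (-2.11 ± 0.92, adjusted p = 0.129).

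Npc1l1 (chr11:6211013-6230143) is shown in every mouse because its groups did not overlap, a choice made after its values were seen. It read 1157, 1106, 1139 and 850.7 CPM in WT PF mice and 805.2, 571.7 and 680.7 CPM in WT EtOH mice. In fat-1 mice it read 998.1, 1170, 1036 and 915.1 CPM under PF and 673.9, 797, 8.12, 9.28 and 590.9 CPM under EtOH. All 8 EtOH-fed mice were below all 8 PF mice. Fat-1 EtOH mice 3 and 4, in which Soat2 was also lowest, stood at 8.12 and 9.28 CPM, and the others of their group at 590.9 CPM or more.

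With all mice in the fit, edgeR called Npc1l1 in neither genotype, with log2 fold changes of -0.63 ± 1.05 in WT (adjusted p = 0.824) and -1.31 ± 0.91 in fat-1 mice (adjusted p = 0.266). Without fat-1 EtOH mice 3 and 4 it was called lower in fat-1 mice, by -0.55 ± 0.16 (adjusted p = 0.0181), and averaged over genotypes, by -0.59 ± 0.11 (adjusted p = 0.00156). Leaving out WT EtOH mouse 2 as well gave -0.55 ± 0.15 in fat-1 mice (adjusted p = 0.0173). With only the WT groups fitted, Npc1l1 was called lower in WT mice.

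Nr1h3 (chr2:91184061-91202834), which encodes LXR alpha, was also lower with EtOH. It read 89.6, 96.3, 80.2 and 59.55 CPM in WT PF mice, and 48, 57.9 and 45.7 CPM in WT EtOH mice. In fat-1 mice the levels were 90.3, 118.6, 98.3 and 110 CPM under PF and 60.6, 56.5, 20.7, 27.8 and 56.9 CPM under EtOH. The groups did not overlap within either genotype, although fat-1 EtOH mouse 1 stood above WT PF mouse 4. It fell by 1.23 ± 0.27 on the log2 scale in fat-1 mice (edgeR, adjusted p = 0.00339). In WT mice the difference was -0.69 ± 0.31 (adjusted p = 0.337), and without fat-1 EtOH mice 3 and 4 it was -0.68 ± 0.15 and called (adjusted p = 0.039). Leaving out WT EtOH mouse 2 as well lost that call (-0.80 ± 0.16, adjusted p = 0.0595). Averaged over genotypes the gene fell by 0.96 ± 0.21 (adjusted p = 0.00326), and here it was called also without fat-1 PF mice 2 and 4 (-0.88 ± 0.24, adjusted p = 0.0224). In fat-1 mice alone that omission lost the call (-1.08 ± 0.34, adjusted p = 0.0551).

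**Figure D2:**
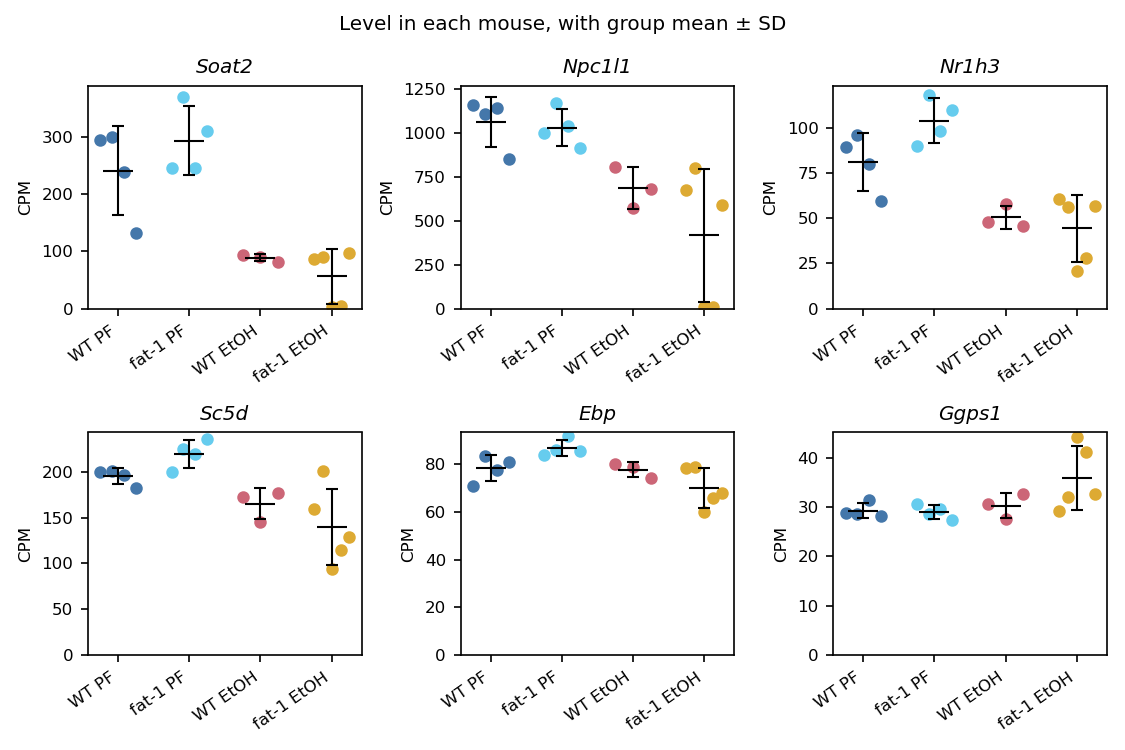
CPM of 6 genes in each mouse (points, in order of replicate number within each group) with the group mean and SD (bars); axes start at 0. For Soat2 and Npc1l1 all EtOH-fed mice lie below all PF mice, and fat-1 EtOH mice 3 and 4 lie near 0.

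The other members of this group were Stard4, which carries sterols between membranes, and Mylip, an E3 ubiquitin ligase that is a known LXR target. Stard4 ranged from 233 to 544.5 CPM over the 16 mice and had log2 fold changes of 0.04 ± 0.23 in WT and -0.18 ± 0.20 in fat-1 mice, neither called. Mylip read 18.4, 5.755, 23.8 and 6.75 CPM in fat-1 PF mice 1 to 4, against 16.4 to 35 CPM in WT PF mice. Its lowest values were thus in fat-1 PF mice 2 and 4. The log2 difference of fat-1 EtOH from fat-1 PF mice was 0.84 ± 0.38 (adjusted p = 0.0946), and it was 0.22 without those 2 mice.

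Markers of gut region also differed with diet. Within each genotype 4 of the 27 genes had all EtOH-fed mice below all PF mice: Soat2, Npc1l1, Nr1h3 and Sc5d in WT mice (12.1% of all genes) and Soat2, Npc1l1, Nr1h3 and Ebp in fat-1 mice (13.4%). Of 10 proximal small intestine genes, edgeR called 3 lower in WT mice (0.0724% of all genes) and 9 in fat-1 mice (18.8%). In WT mice 8 had an unadjusted p below 0.05 (14.1% of all genes), DESeq2 called 8 lower (1.35%) and limma voom 9 (10.6%). Their sum was 5894 to 23890 CPM in WT PF, 16130 to 61510 in fat-1 PF, 2257 to 3367 in WT EtOH and 116.5 to 4954 in fat-1 EtOH mice. Apoc2 had no read in 7 mice and Gata4 in 1. Apoc2 was at 0.6834 to 4.418 CPM in fat-1 PF mice and at 0.4371 CPM or less in all others. It passed the filter on low counts only through the fat-1 PF group, so that its lower call adds no support. Of 8 large intestine genes 5 were tested, and all 5 were called higher in fat-1 EtOH mice (18.7% of all genes). Hoxa13, Hoxb13 and Hoxd13, which mark the hindgut, had no read in 14, 13 and 15 of the 16 mice. The Hoxa13 reads, 7 and 10 counts, were those of fat-1 EtOH mice 3 and 4, and the single Hoxd13 read was of mouse 4, while Hoxb13 had 2 counts or fewer in any mouse. Aqp8 had no read in 7 mice and Car1 in 1. Aqp8 was at 0.7649 CPM or less in PF mice and passed the filter on low counts only through EtOH-fed mice. Its call is therefore a description and adds no support. Of the 6 ileal genes edgeR and DESeq2 called 1, Nr1h4, higher in fat-1 EtOH mice. Limma voom also called Slc10a2 there and Fgf15 in WT EtOH mice. Of all genes, edgeR called 18.7% higher in fat-1 mice, DESeq2 20.4% and limma voom 10.8%, and limma voom 10% in WT mice. Fgf15 had no read in 1 mouse. The part of these regional differences in the levels of Soat2, Npc1l1 and Nr1h3 was not tested.

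Cell type markers were compared as well. In fat-1 mice edgeR called 18.7% of all genes higher and 18.8% lower, DESeq2 20.4% and 19.9%, and limma voom 10.8% and 16%. In WT mice the shares higher were 0.00724%, 0.618% and 10% in the same order. An unadjusted p below 0.05 in edgeR was found for 14.1% of all genes in WT and 47.9% in fat-1 mice. Averaged over genotypes edgeR called 18.3% higher. Of 8 smooth muscle genes, edgeR called 8 higher in fat-1 EtOH mice and 0 in WT mice, where 8 had an unadjusted p below 0.05, DESeq2 called 2 and limma voom 8. Their sum was 952.9 to 1514 CPM in PF and 1963 to 4163 CPM in EtOH-fed mice. In fat-1 mice, 2 of 9 epithelial genes were called higher and 2 lower, close to the shares of all genes. There, 0 of 8 B-cell follicle and 0 of 8 proliferation genes were called. Of 6 adipocyte genes 5 were above 0 (median of the list 1.17) and edgeR called 1, Cidec, which was lower, whereas DESeq2 also called Cfd, Plin1 and Retn higher. Of the B-cell and proliferation lists edgeR had 0 genes at an unadjusted p below 0.05, DESeq2 called 0, and limma voom called 0 B-cell genes and 1 proliferation gene, Mki67. In WT mice all 8 proliferation genes were above 0 (median 0.41), of which edgeR and DESeq2 called 0, edgeR had 1 at an unadjusted p below 0.05, and limma voom called 5 higher. Averaged over genotypes edgeR called Mki67 higher. The sum of the B-cell genes was 571.8 CPM in the highest fat-1 EtOH mouse and at most 116 CPM in PF mice. Whether these differences contribute to those of the 27 genes was not tested.

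Of the 18 enzymes of the pathway, 11 were above 0 and 7 below 0 with EtOH in fat-1 mice. Of the 8 enzymes from acetyl-CoA to the prenyl diphosphates, 1 was called in fat-1 mice, where 37.4% of all genes were. Ggps1 (chr13:14050659-14063488), which makes the geranylgeranyl diphosphate used for protein prenylation and so lies off the branch to sterols, read 30.6, 28.6, 29.7 and 27.4 CPM in fat-1 PF mice and 29.3, 32.15, 44.3, 41.1 and 32.6 CPM in fat-1 EtOH mice. Its WT values were 28.85, 28.6, 31.5 and 28.2 CPM under PF and 30.7, 27.6 and 32.6 CPM under EtOH. The groups overlapped in both genotypes, and the 2 highest values were those of fat-1 EtOH mice 3 and 4. It rose by 0.30 ± 0.11 on the log2 scale in fat-1 mice (edgeR, adjusted p = 0.0484), and without these 2 mice the value was 0.14 and not called (adjusted p = 0.265). Reads of Arid4b, on the opposite strand, could be among its counts.

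Hmgcs1, the synthase that makes HMG-CoA, had the highest level per length of the enzymes. It read 399.8, 339.2, 493 and 658.1 CPM in WT PF, 535.6, 186.7, 465.2 and 270.3 in fat-1 PF, 604.5, 453.7 and 651.2 in WT EtOH and 659, 650.5, 213.1, 320.8 and 437.3 CPM in fat-1 EtOH mice. The range within the fat-1 groups was wider than any difference between group means. Its log2 fold change was 0.27 ± 0.40 in WT and 0.32 ± 0.35 in fat-1 mice, where it was 0.70 without EtOH mice 3 and 4 and -0.13 without PF mice 2 and 4. Among the other early enzymes, Mvk had the most negative value in fat-1 mice (-0.44 ± 0.21, adjusted p = 0.103), and Idi1 the most positive (0.46 ± 0.40, adjusted p = 0.373). Acat2, Pmvk, Mvd and Fdps lay between -0.27 and 0.01 in fat-1 mice and between 0.07 and 0.23 in WT mice. Over the 16 mice Acat2 (the thiolase, not to be confused with the ACAT2 protein that Soat2 encodes) ranged from 19.9 to 36.2 CPM, Pmvk from 20.2 to 60.35, Mvd from 21.8 to 63.7, Mvk from 18 to 50.35 and Fdps from 16.8 to 52.4 CPM.

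From squalene on, 2 of 10 enzymes were called lower in fat-1 mice, where 18.8% of all genes were: Sc5d and Ebp. Sc5d (chr9:42251595-42264256), a sterol desaturase, read 199.6, 224.9, 219 and 235.8 CPM in fat-1 PF mice and 159.4, 200.7, 94.2, 114.4 and 128.4 CPM in fat-1 EtOH mice. WT PF mice had 200.2, 200.8, 196.9 and 182.8 CPM and WT EtOH mice 172.7, 145.6 and 176.6 CPM. WT groups did not overlap, and the fat-1 groups overlapped by 1 mouse. It fell by 0.66 ± 0.17 on the log2 scale in fat-1 mice (edgeR, adjusted p = 0.00746) and by 0.45 ± 0.13 averaged over genotypes (adjusted p = 0.0138). In WT mice the difference was -0.24 ± 0.19 (adjusted p = 0.588). It was called without fat-1 EtOH mice 3 and 4 (-0.40 ± 0.13, adjusted p = 0.0344) but not without fat-1 PF mice 2 and 4 (-0.58 ± 0.22, adjusted p = 0.0877).

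Ebp (chrX:8185329-8193512), the sterol isomerase that acts before Sc5d, read 83.7, 85.9, 91.7 and 85.5 CPM in fat-1 PF mice and 78.3, 78.9, 59.8, 65.75 and 67.9 CPM in fat-1 EtOH mice. In WT mice it read 70.8, 83.4, 77.75 and 81 CPM under PF and 80, 78.8 and 74.35 CPM under EtOH. The fat-1 groups did not overlap and the WT groups did. It fell by 0.31 ± 0.09 in fat-1 mice (edgeR, adjusted p = 0.0136) and was -0.01 ± 0.10 in WT mice (adjusted p = 0.975). The difference between these, -0.30 ± 0.13, did not pass the test of the interaction of genotype and diet (adjusted p = 0.595). The call in fat-1 mice was lost without EtOH mice 3 and 4 (-0.18, adjusted p = 0.139). All 4 fat-1 PF mice were above all 4 WT PF mice (0.15 ± 0.09, adjusted p = 0.536), as in 4.25% of all genes. This comparison shares the fat-1 PF mice with the former.

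Squalene epoxidase, Sqle, had the widest range among the enzymes relative to its lowest value. Its values and those of Hmgcs1, Mylip, Srebf2, Insig1 and Insig2 are given by mouse because of their spread, a choice made after they were seen. It read 216.9, 175.7, 234.1 and 326 CPM in WT PF, 261.8, 48.15, 234.7 and 94.75 in fat-1 PF, 285.5, 242.5 and 254.5 in WT EtOH and 301.7, 311.8, 81.4, 105.7 and 203.1 CPM in fat-1 EtOH mice. The 4 lowest values were those of fat-1 PF mice 2 and 4 and fat-1 EtOH mice 3 and 4, and all other mice had 175.7 CPM or more. Its log2 fold change with EtOH was 0.13 ± 0.53 in WT and 0.33 ± 0.47 in fat-1 mice. Leaving out the 2 low EtOH mice gave 0.79 ± 0.45, and leaving out the 2 low PF mice gave -0.30 ± 0.44, neither called.

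The other 7 enzymes of this stretch, Fdft1 (squalene synthase), Lss (lanosterol synthase), Tm7sf2, Msmo1, Nsdhl, Hsd17b7 and Dhcr7, had log2 fold changes from -0.04 to 0.31 in WT mice and from -0.14 to 0.37 in fat-1 mice, none called. Fdft1, whose exons overlap Ctsb on the opposite strand, ranged from 45.6 to 167.1 CPM, Msmo1 from 105.9 to 343.2, Lss from 29.9 to 85.1, Tm7sf2 from 20.8 to 74.5, Nsdhl from 27.5 to 77.9 and Hsd17b7 from 25.7 to 84.2 CPM. Dhcr7, which acts after Sc5d, stood apart from these: its highest value was that of fat-1 EtOH mouse 4 (103.8 CPM) and its lowest that of fat-1 EtOH mouse 5 (44.9 CPM).

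**Figure D3:**
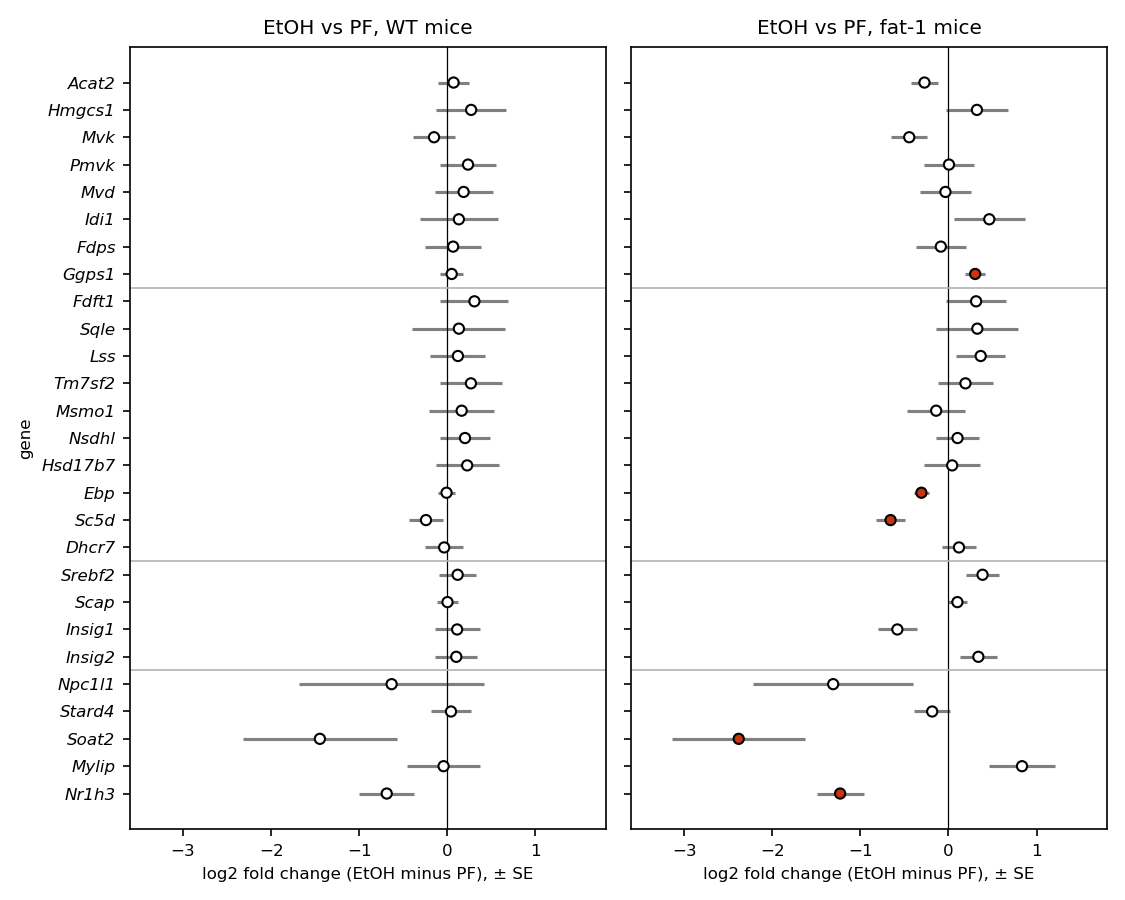
Log2 fold change of EtOH-fed against PF mice (x axis, ± SE of the edgeR fit) for the 27 genes in WT (left) and fat-1 mice (right); filled points were called at an adjusted p of 0.05. No gene is called in WT mice, and in fat-1 mice Soat2, Nr1h3, Sc5d and Ebp are called lower and Ggps1 higher.

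The summed level of the synthesis enzymes varied widely among mice of the same group. The CPM of the 18 enzymes summed to 1511 to 2342 in WT PF, 1062 to 2202 in fat-1 PF, 1804 to 2278 in WT EtOH and 977.3 to 2399 in fat-1 EtOH mice. All 4 ranges overlap. Low sums were those of fat-1 EtOH mouse 3 (977.3 CPM), fat-1 PF mouse 2 (1062), fat-1 EtOH mouse 4 (1315) and fat-1 PF mouse 4 (1421), while the other mice had 1511 CPM or more.

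This spread ran through most of the enzymes. For 17 of the 18, the lowest of the 16 mice was among these 4 mice, and for 8 of the 18 so were the 3 lowest. Over all genes tested the same held for 49.4% and 6.22%. Fat-1 PF mouse 2 was below all WT PF mice for 13 of 18 enzymes (32.3% of all genes) and mouse 4 for 7 (28.6%), whereas mice 1 and 3 of the group were for 0 and 2 (21.9% and 25.4%). Among fat-1 EtOH mice, replicates 3, 4 and 5 were below all WT EtOH mice for 16, 15 and 16 of 18 enzymes (36.4%, 36.3% and 30.5% of all genes), and replicates 1 and 2 for 1 and 0 (22.5% and 22.2%). Replicate 5 had a large intestine sum of 144.6 CPM, far below those of replicates 3 and 4, and the highest B-cell (571.8 CPM) and adipocyte (645.4 CPM) sums of the 16 mice. The sums of the 9 epithelial genes were 10810, 10850 and 12600 CPM in fat-1 EtOH replicates 3, 4 and 5, and for fat-1 PF replicates 2 and 4 they were 15370 and 14180 CPM, below the 16370 CPM or more of the other 11 mice. The 4 mice were named for their region markers and enzyme levels together, so these counts are a description.

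**Figure D4:**
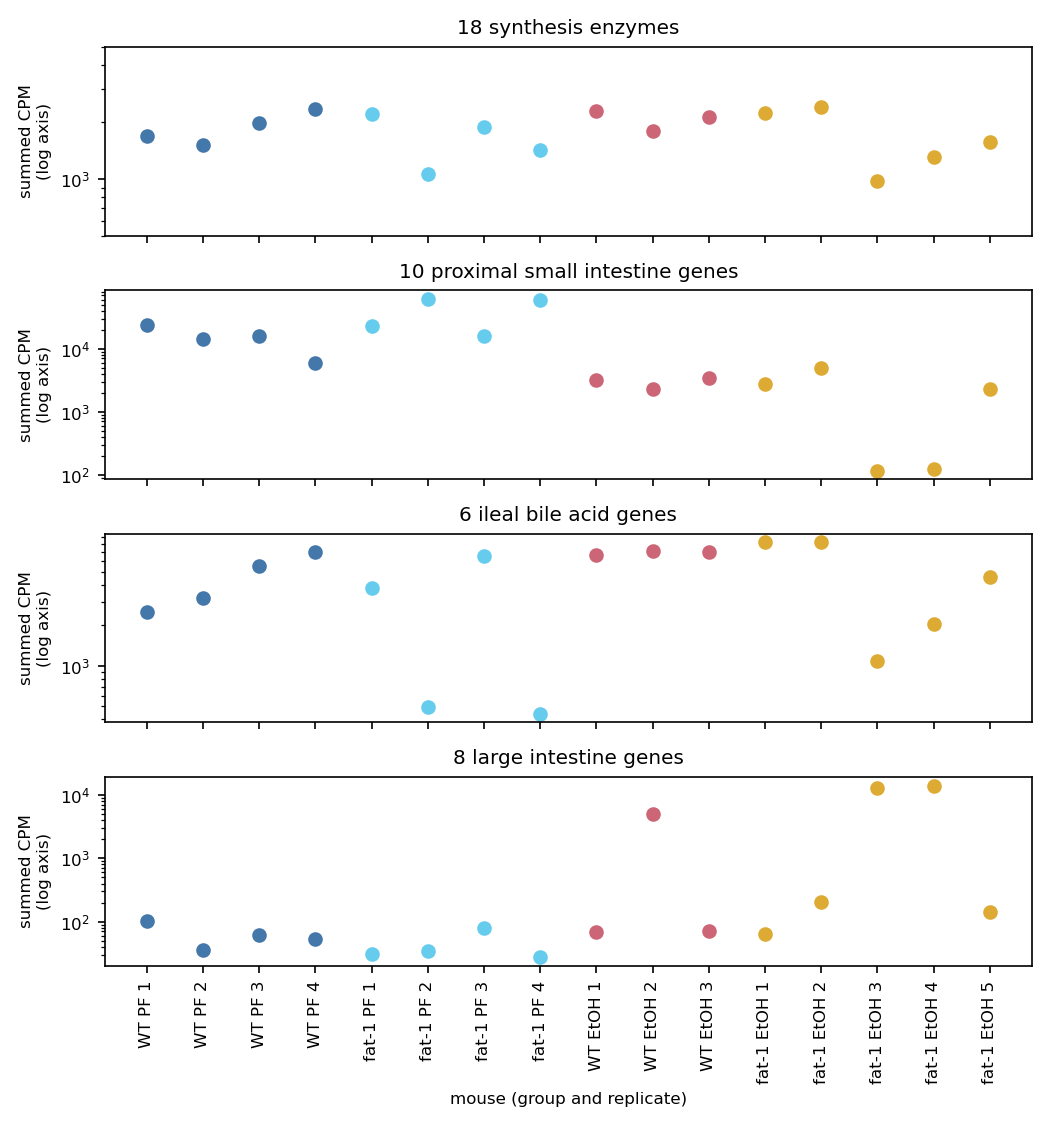
Summed CPM in each mouse (log axes) of the 18 synthesis enzymes and of the proximal small intestine, ileal and large intestine genes. The 4 mice with enzyme sums of 1421 CPM or less are fat-1 PF mice 2 and 4, with the highest proximal and lowest ileal sums, and fat-1 EtOH mice 3 and 4, with the lowest proximal and highest large intestine sums.

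Of these 4 mice, the PF pair with low enzymes had high proximal sums and the EtOH pair low ones, while ileal sums were low in both pairs. The pattern did not hold in all mice. Fat-1 EtOH mouse 5, also low in most enzymes, had a proximal sum of 2325 CPM, within the WT EtOH range of 2257 to 3367 CPM. From WT PF to WT EtOH mice the median proximal sum went from 15090 to 3160 CPM, and that of the enzymes from 1831 to 2136 CPM. WT EtOH mouse 2, with a large intestine sum of 5050 CPM, had the lowest enzyme sum of its group (1804 CPM). The part of gut region, or of the epithelial, B-cell and adipocyte genes, in the enzyme levels was not tested. The pairs were named partly for their low enzymes, so that the next counts, made without either pair, are a description and no independent evidence of a direction. Without fat-1 EtOH mice 3 and 4, 17 of the 27 genes had a log2 fold change above 0 in fat-1 mice (median 0.26, beside 0.07 over all genes). Without fat-1 PF mice 2 and 4, 6 of the 27 did (median -0.30, beside 0.06). With all mice 15 did.

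The calls were as follows. Without fat-1 EtOH mice 3 and 4, 5 of 27 were called in fat-1 mice (30.8% of all genes): Srebf2 higher and Soat2, Nr1h3, Npc1l1 and Sc5d lower. In WT mice 2 were called in that fit, Nr1h3 and Soat2, against 2.01% of all genes. No WT mouse had been left out, but the estimate of the spread is shared by all groups. Leaving out WT EtOH mouse 2 as well gave 0 of 27 in WT mice (0.189% of all genes), with 2 mice left in that arm. In that fit Soat2, Nr1h3, Npc1l1 and Sc5d were called lower in fat-1 mice, where 29.7% of all genes were called, and averaged over genotypes, where 32.9% were. Without fat-1 PF mice 2 and 4, 0 of 27 were called in fat-1 mice (13.9% of all genes) and 1 averaged over genotypes, Nr1h3 (23.9%).

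**Figure D5:**
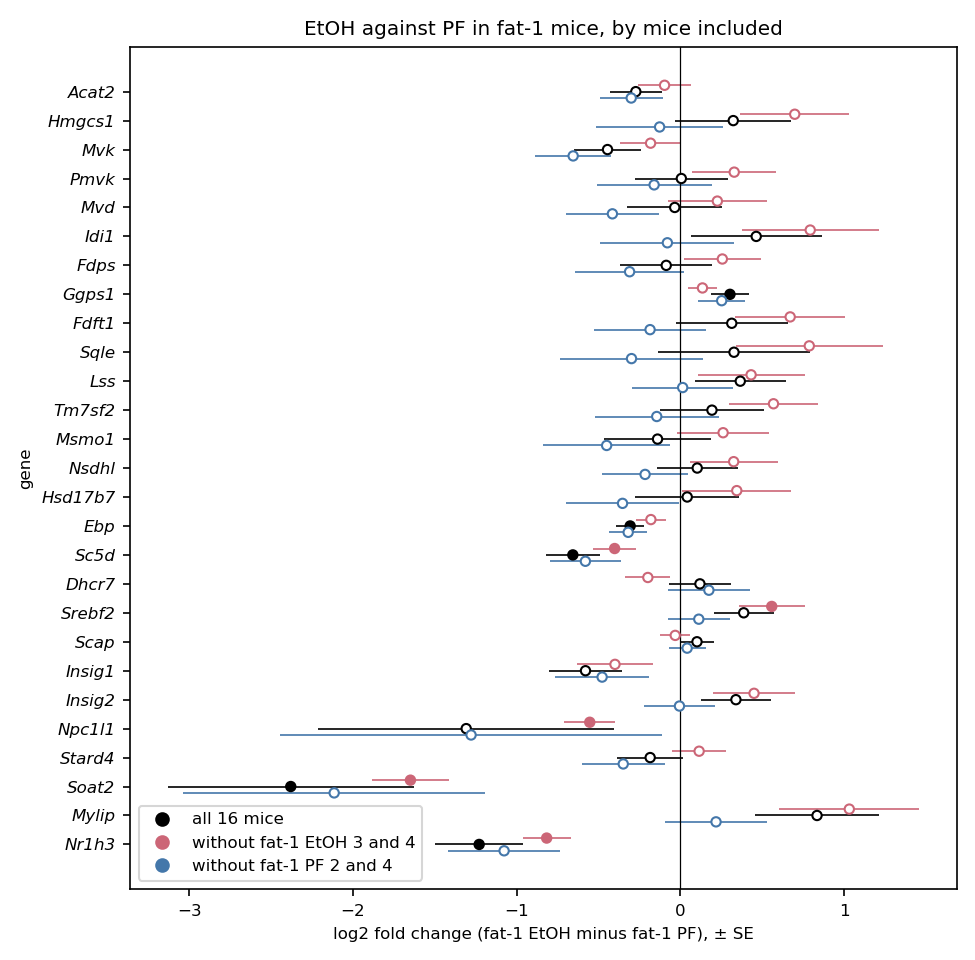
Log2 fold change of fat-1 EtOH against fat-1 PF mice (± SE) for the 27 genes, with all mice (black), without fat-1 EtOH mice 3 and 4 (red) and without fat-1 PF mice 2 and 4 (blue); filled points were called. Of the 18 synthesis enzymes, 13 are above 0 without the EtOH pair and 3 without the PF pair, whereas Soat2, Npc1l1 and Nr1h3 stay below 0 in all.

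The sterol sensing genes were called by edgeR in no comparison with all mice. With EtOH, 1 of the 4 (Insig1) had an unadjusted p below 0.05 in fat-1 mice, where 47.9% of all genes did, and 0 in the WT, where 14.1% did. DESeq2 called 1 lower in fat-1 mice (Insig1), where it called 19.9% of all genes lower, and limma voom 2 higher (Insig2 and Srebf2), where it called 10.8% higher. Srebf2, the gene of SREBP2 and itself one of its targets, read 224, 216.4, 282.3 and 314.1 CPM in WT PF, 269.6, 138.4, 229.5 and 184.8 in fat-1 PF, 297.8, 259.1 and 286.5 in WT EtOH and 301, 331.4, 217.2, 235.1 and 260.3 CPM in fat-1 EtOH mice. Fat-1 PF mice 2 and 4 were again lowest. Its log2 fold change was 0.12 ± 0.21 in WT and 0.39 ± 0.18 in fat-1 mice (adjusted p = 0.109), and 0.11 ± 0.19 without fat-1 PF mice 2 and 4 (adjusted p = 0.683). It was 0.56 ± 0.20 without fat-1 EtOH mice 3 and 4 (adjusted p = 0.0486), a call that was lost when WT EtOH mouse 2 was left out as well (adjusted p = 0.0582). Scap was the steadiest, from 41.7 to 62.6 CPM, with values of 0.00 ± 0.12 in WT and 0.10 ± 0.10 in fat-1 mice.

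With EtOH in fat-1 mice the fold changes of the INSIG genes differed in sign, and edgeR called neither. In WT mice both were above 0. Insig1, a target of SREBP2, read 147, 110.2, 77.8 and 145.8 CPM in fat-1 PF and 95.2, 99.1, 50, 84.3 and 73.8 CPM in fat-1 EtOH mice, with 65.8 to 122.2 CPM in WT PF and 99.8 to 107.3 CPM in WT EtOH mice. All 5 fat-1 EtOH mice were below the 3 WT EtOH mice (-0.36 ± 0.24, edgeR adjusted p = 0.757), as in 1.02% of all genes. With EtOH its log2 difference was -0.58 ± 0.22 in fat-1 mice (adjusted p = 0.0543) and 0.11 ± 0.26 in WT mice, and the interaction was -0.69 ± 0.34 (adjusted p = 0.595). Insig2 read 47.1, 39.3, 91.3 and 39.4 CPM in fat-1 PF mice and 56.75 to 81.5 CPM in the other 12 mice. Its difference was 0.34 ± 0.21 in fat-1 mice (adjusted p = 0.22) and 0.10 ± 0.24 in the WT (adjusted p = 0.881), and without fat-1 PF mice 2 and 4 it was -0.01 ± 0.22 in fat-1 mice.

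Genotype was compared to find what the n3 desaturase changed by itself. Between fat-1 and WT mice, 0 of 27 genes were called under PF, where 0% of all genes were, and 0 of 27 under EtOH, where 0.00724% were. Under PF, 114 of all genes were called without fat-1 PF mouse 3 and 98 without fat-1 PF mouse 1, and 0 without any other single mouse. Averaged over diets 0 were called (0.00724%), and the interaction term had 0 (0%). The number with an unadjusted p below 0.05 in edgeR was 1 under PF (Mylip; 12.7% of all genes), 0 under EtOH (4.86%), 0 averaged (10.2%) and 1 in the interaction (Ebp; 8.26%). DESeq2 and limma voom called 0 of 27 in all 4, and at most 1.18% and 0.217% of all genes. The log2 fold changes ran from -0.90 (Mylip) to 0.36 (Nr1h3) under PF and from -0.72 (Npc1l1) to 0.24 (Ggps1) under EtOH.

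More genes were below 0 than above in these comparisons, without any being called. Under EtOH 24 of 27 were lower in fat-1 mice (median -0.24, beside 0.04 over all genes), and 15 of 27 without fat-1 EtOH mice 3 and 4 (median -0.01). Under PF 18 of 27 were lower (median -0.08), and 7 of 27 without fat-1 PF mice 2 and 4 (median 0.09). The intervals leave room for change: of Sqle under PF, the estimate plus and minus 2 SE reached from -1.56 to 0.41, and of Hmgcs1 from -1.12 to 0.37. For Scap it was -0.27 to 0.16.

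Averaged over genotypes, 3 of the 27 were called lower with EtOH, Soat2, Nr1h3 and Sc5d, and 0 higher, where 35.9% of all genes were called. DESeq2 also called 3 lower and 0 higher, where it called 19.2% of all genes lower. Limma voom called 3 lower, against 22.1% of all genes, and 4 higher (Hmgcs1, Fdft1, Insig2 and Srebf2), against 20.4%. Without fat-1 EtOH mice 3 and 4 Npc1l1 joined these 3 in edgeR (34.9% of all genes called).

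Neighbouring genes of sterol handling were described from 4 lists. In WT mice 0 of their 37 genes were called with EtOH. At an unadjusted p below 0.05 edgeR had 3 of them there (14.1% of all genes), DESeq2 called 0 (1.97%), and limma voom called 3 higher and 3 lower (20.7% in either direction). In fat-1 mice, where 18.7% of all genes were called higher and 18.8% lower, 1 of 9 genes of LXR, efflux and storage rose and 4 fell. Abcg1, a sterol exporter with few reads, rose by 1.35 ± 0.45 (adjusted p = 0.03). Its fat-1 EtOH level, 6.48 ± 5.95 CPM (SD, n = 5), holds 1 mouse at 17.1 CPM, replicate 5, without which the change was 0.61 ± 0.21 (adjusted p = 0.0319). Nr1h2, the other LXR, had the smallest change of those called (-0.44 ± 0.11, adjusted p = 0.00629). Abca1, which loads cholesterol on nascent HDL, fell by 1.09 ± 0.34 (adjusted p = 0.0227) and Srebf1, the LXR target that drives fatty acid synthesis, by 0.91 ± 0.21 (adjusted p = 0.00462).

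Abcg5 and Abcg8 form the pump that returns sterols to the gut lumen. In fat-1 mice Abcg5 ranged over 293.8 to 490.3 CPM under PF and 2.77 to 330.3 CPM under EtOH, and Abcg8 over 228.7 to 365.5 and 1.804 to 290.3 CPM. Their log2 differences, -1.33 ± 0.89 and -1.06 ± 0.90, were not called (adjusted p = 0.25 and 0.367). In WT mice Abcg5 was at -0.44 ± 1.02 and Abcg8 at -0.14 ± 1.03.

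Of 10 genes of sterol trafficking and SREBP processing, 1 rose and 3 fell in fat-1 mice, beside the same 18.7% and 18.8% of all genes, the called ones ranging from -0.66 for Lipa, the lysosomal acid lipase, and 0.62 for Npc1, which exports cholesterol from lysosomes, to -0.36 for Osbp. Of 9 genes of isoprenoids and oxysterols 3 fell (18.8% of all genes), from Cyp27a1, a sterol hydroxylase (-1.06 ± 0.26), to Fnta, a prenyl transferase subunit (-0.34 ± 0.09). Of 9 fatty acid synthesis genes 2 rose (18.7% of all genes), Acly (1.16 ± 0.29, adjusted p = 0.00658) and Acaca (1.00 ± 0.27, adjusted p = 0.0105), which supply and use cytosolic acetyl-CoA. In all, 14 of the 37 were called in fat-1 mice, beside 37.4% of all genes. Without fat-1 EtOH mice 3 and 4, 15 were (30.8% of all genes): Abcg5 was then called lower (-0.57 ± 0.19, adjusted p = 0.0388), and Abca1 (-0.71 ± 0.29, adjusted p = 0.0819) and Acaca (0.76 ± 0.29, adjusted p = 0.0586) were not called. Leaving out WT EtOH mouse 2 as well gave 13 (29.7%). Without fat-1 PF mice 2 and 4, 3 were called (13.9%), Npc1 higher and Lpcat3 and Stard3 lower, and Srebf1 was -0.29 ± 0.14 (adjusted p = 0.156).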

How the data were processed

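Poly(A) RNA of the terminal ileum was sequenced from stranded libraries, 1 per mouse. The authors aligned reads to mm10 with TopHat and deposited raw read counts per gene from HTSeq, whose column totals were 8422645 to 11438539. Whether counting used strand is not given in the sources used here. The submitters' processing notes name bcl2fastq, FastQC 0.10.1 and Cufflinks, whose results were not used here. No per-sample column was left out.

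From the counts, genes were filtered (filterByExpr) and fitted with edgeR 4.0.16 (TMM, robust quasi-likelihood, 4 group means, 16 mice, R 4.3.3), testing 7 contrasts with Benjamini-Hochberg adjustment over 13811 genes. A gene was called at 0.05. The SE of an edgeR log2 fold change was derived as its absolute size divided by the square root of the F statistic. Exact permutation tests (scipy 1.17.1, two-sided) used log2(CPM + 0.5). DESeq2 1.42.0, limma voom (3.58.1), other scalings and filters, omitted mice and a replicate block were alternatives, 27 in all. Gene models were GENCODE M21 (GRCm38).

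The members and lists were chosen with earlier results of these data known. All 27 genes are named, those called are given by mouse, and of each related list the called genes with the largest and smallest change are named, with Srebf1, Abca1, Abcg5 and Abcg8 in any case. Same-numbered mice did not deviate together (mean correlation -0.0225 over 21 pairs, 0.00703 over 74 others), so numbers do not pair mice. Intervals of 3 counts cover counting error only.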

Additional observations from a re-analysis of the deposited data

Results flagged for a closer look

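The 27 genes in 3 groups of mice gave 81 sets of 4 or 5 values (the 3 WT EtOH mice were too few), and in 3 of them the highest or lowest mouse stood far from the others by Dixon's criterion, which chance meets in about 1 in 20. Pmvk, which phosphorylates mevalonate phosphate, was at 25.4 CPM in fat-1 PF mouse 2, the lowest of its group. Insig2 was at 91.3 CPM in fat-1 PF mouse 3, above the other 3 mice of that group. Npc1l1 was at 850.7 CPM in WT PF mouse 4, which still exceeded every EtOH-fed mouse.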

How the results depend on the processing

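No gene of the 27 reversed a call under any of the 27 alternatives. Of the calls in fat-1 mice with EtOH, edgeR's Nr1h3 was kept in 26 alternatives, Sc5d in 25, Soat2 in 24, Ebp in 21 and Ggps1 in 11. The 4 lower calls in fat-1 mice became 1 when only the groups compared were fitted and 0 without fat-1 PF mice 2 and 4. The 1 higher call, Ggps1, became 2 with upper-quartile scaling (Ggps1 and Srebf2) and was replaced by 2 with limma voom (Insig2 and Srebf2), and became 0 with a looser filter, with only the groups compared, without fat-1 PF mice 2 and 4, or without fat-1 EtOH mice 3 and 4 and WT EtOH mouse 2. Leaving out single mice gave 0 to 3. In WT mice, lower calls rose from 0 to 2 with limma voom, 3 with only the groups compared (Npc1l1, Nr1h3 and Soat2, where 569 of 13250 genes were called lower) and 2 without fat-1 EtOH mice 3 and 4. Averaged over genotypes, higher calls rose from 0 to 1 with upper-quartile scaling and 4 with limma voom, and were 0 to 1 without single mice. Lower calls fell from 3 to 1 without fat-1 PF mice 2 and 4. Between genotypes under PF, lower calls were 0 to 1 without single mice, the 1 being Insig2 without fat-1 PF mouse 3. The cause of these moves was not tested. The replicate block left 5 calls in fat-1 mice and 3 averaged, and 18 and 4748 of all genes in WT and fat-1 mice. Over all genes, calls in WT mice were 11, 2853 with limma voom, 245 with DESeq2, 1103 with only the groups compared, 2 with a looser and 0 with a stricter filter, and 273 without fat-1 EtOH mice 3 and 4. Without single mice they were 0 (WT EtOH mouse 1 or 3) to 66 (WT PF mouse 4). In fat-1 mice they were 5170 (2578 higher, 2592 lower), 5659 (3906 and 1753) with upper-quartile scaling, which moved the median of all genes from 0.05 to 0.20, 3086 with only the groups compared, and 1965 without fat-1 PF mice 2 and 4. At 3 counts, 0.246 to 0.421 CPM, depth limits none of the 27.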
